A study of Mus musculus with 36 samples.

Results

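Retrocopies of housekeeping genes were followed in RNA sequencing of mouse muscle satellite cells, together with the genes they were copied from. The set holds 10 of the 55471 gene identifiers measured. It consists of 4 parent genes, Rplp0, Eef1a1, Pcnp and Hdac1, and of 6 processed pseudogenes, which are Gm8730, Gm14165 and Rplp0-ps1 (copies of Rplp0), Gm13456 (of Eef1a1), Gm7887 (of Pcnp) and Gm10093 (of Hdac1). The copies were chosen by their TPM in control and conditional Drp1 knockout (KO) libraries of this same study, which their levels separated. The genotype contrast of copies, parents and sums is therefore given as a description without a test, and tests were kept for injury and age.

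Satellite cells are the stem cells that rebuild muscle fibres, and here they came from hindlimb muscle of C57BL/6 mice. A table of 21 libraries held tamoxifen-treated young mice aged 3 months. Control and KO mice alike carried Pax7-CreER, a tamoxifen-inducible recombinase driven by the satellite cell gene Pax7, and the ROSA26YFP reporter, and KO mice also carried Drp1fl/fl, a floxed allele of the mitochondrial fission gene Dnm1l. Control groups were uninjured muscle (QSC, quiescent cells, n = 3), day 1 after cardiotoxin (1 DPI, n = 4) and day 3 (3 DPI, n = 3), and KO groups were the same states with n = 3, 4 and 4. Sorting was on YFP in QSC and at 1 DPI and on a CD34-YFP+ fraction at 3 DPI, so that day and gate cannot be told apart in comparisons with 3 DPI. A second table covered 15 libraries of wild-type mice, young (3 months, QSC and 1 DPI) or old (24 months, QSC, 1 DPI and 3 DPI), with n = 3 in each of its 5 groups. Nothing in the labels ties a library to an animal, so a p-value here speaks of the scatter among libraries, part of which may be technical.

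Levels are TPM, the standard relative transcript abundance of RNA sequencing, which are scaled by transcript length and sum to the same total in each library, so that levels of different genes can be set side by side. TPM keep no depth, so the reads behind a value are unknown and no counting interval can be given. A library of the Drp1 study held 12325 to 14969 genes at 1 TPM or more. The 10 satellite cell markers summed to 1266 to 7969 TPM in control and 1304 to 6906 TPM in KO libraries, with Calcr and Chrdl2 at 0 in at least 1 library. Of the other markers, those of leukocytes reached 2002 TPM in control and 4317 TPM in KO libraries, both at 1 DPI. Those of erythroid cells reached 1785 TPM in control and 1624 TPM in KO libraries, also at 1 DPI. The floxed gene Dnm1l held 36.2 ± 4.64 TPM (SD, n = 3) in control and 36.7 ± 5.84 TPM (n = 3) in KO QSC, which overlap, 48.7 ± 3.71 and 34.7 ± 5.92 TPM (n = 4 each) at 1 DPI, and 65.4 ± 4.20 (n = 3) and 28.3 ± 6.82 TPM (n = 4) at 3 DPI, both without overlap. Of all genes that reached 1 TPM in 3 or more libraries, 1.19% at 1 DPI and 3.25% at 3 DPI also lay below control without overlap. Gene-level TPM also count exons outside the floxed part, so they check the labels only in part, and in QSC they do not separate the genotypes.

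A processed pseudogene arises when a messenger RNA is copied back into DNA and inserted elsewhere in the genome. Such a copy lacks introns, and its sequence stays close to the parent's coding sequence until mutations collect. Short reads from the parent and from a copy can therefore fit both places, and counting tools such as RSEM divide them by an estimated probability. Genes with very abundant messenger RNA, among them those of ribosomal proteins and translation factors, have left many such copies in mammalian genomes.

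Rplp0 encodes the stalk protein of the large ribosomal subunit, which anchors the acidic proteins of Rplp1 and Rplp2. Eef1a1 encodes the factor that brings aminoacyl-tRNA to the ribosome. Pcnp encodes a small nuclear protein that the ubiquitin ligase encoded by Uhrf2 modifies. Hdac1 encodes a histone deacetylase of the SIN3, NuRD and CoREST complexes.

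The stretches below show what separates a read of a copy from a read of its parent. Each is a window of 60 bases of the parent's coding sequence, 5′ to 3′, with the same window in its copies, from the GENCODE M21 transcripts of the build GRCm38. Capitals in a copy mark bases that differ from the parent, and capitals in a parent mark positions at which any listed copy differs. The Rplp0 window covers coding bases 499 to 558.
Rplp0: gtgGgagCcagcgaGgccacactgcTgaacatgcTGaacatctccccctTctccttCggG
Gm8730: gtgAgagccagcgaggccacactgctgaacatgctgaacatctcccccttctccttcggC
Gm14165: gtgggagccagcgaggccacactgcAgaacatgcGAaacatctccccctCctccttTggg
Rplp0-ps1: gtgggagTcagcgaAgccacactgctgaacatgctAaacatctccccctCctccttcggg
The Eef1a1 window covers coding bases 893 to 952.
Eef1a1: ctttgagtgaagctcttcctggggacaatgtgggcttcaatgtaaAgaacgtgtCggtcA
Gm13456: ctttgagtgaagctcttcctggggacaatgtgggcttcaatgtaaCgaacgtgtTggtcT
The Pcnp window covers coding bases 384 to 443 and holds both mismatches of Gm7887.
Pcnp: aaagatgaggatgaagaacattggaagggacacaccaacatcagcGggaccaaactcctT
Gm7887: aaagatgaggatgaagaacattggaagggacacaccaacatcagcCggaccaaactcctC
The Hdac1 window covers coding bases 423 to 482, where mismatches of Gm10093 lie close together.
Hdac1: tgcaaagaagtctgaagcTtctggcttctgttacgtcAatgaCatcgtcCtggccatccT
Gm10093: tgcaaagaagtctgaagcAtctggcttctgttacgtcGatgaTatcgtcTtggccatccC

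All 6 copies are annotated with 1 exon, against 7, 8, 5 and 14 exons in Rplp0, Eef1a1, Pcnp and Hdac1. Each copy model spans the coding sequence of its parent, begins at the parent's start codon and holds almost none of its untranslated ends. Gm7887 was the closest to its parent, with 2 mismatches over 537 bases (99.6% identity). Gm10093 had 9 mismatches over 1444 bases (99.4%), Gm8730 12 over 954 (98.7%) and Gm13456 19 over 1365 aligned with gaps (98.6%). Gm14165 with 25 mismatches (97.4%) and Rplp0-ps1 with 40 (95.7%) had drifted farther. The copies high in KO cells had 99.6% and 98.6% identity and those high in control cells 95.7% to 99.4%, which overlap.

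**Figure D1:**
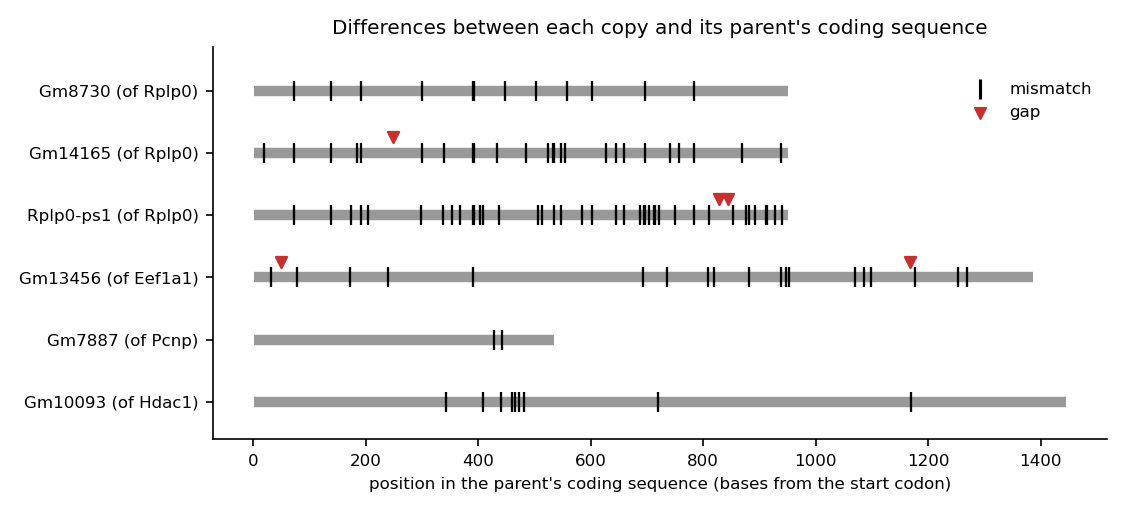
Mismatches (black ticks) and gaps (red triangles) of the 6 copies along the coding sequence of the parent, in bases from the start codon, with a grey bar for the coding length. Gm7887 has 2 mismatches and Rplp0-ps1 has 40.

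The reading frame was kept open to the parent's own stop codon in Gm8730 (317 codons) and Gm7887 (178 codons). No stop lay within the models of Rplp0-ps1 (311 codons read of 317 in the parent) and Gm10093 (481 of 482). In Gm14165 the frame met a stop after 95 codons, beyond a gap of 2 bases, and in Gm13456 after 18 codons.

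How much of a model a read can tell apart differed widely. Stretches of 50 bases that occur in no other annotated transcript made up 13.1% of Gm7887, 15.6% of Gm10093 and 26.3% of Gm8730. They made up 42.6% of Gm13456, 60.9% of Gm14165 and 73.3% of Rplp0-ps1. In the parents the share was 58.2% for Rplp0, 39.4% for Eef1a1, 61.5% for Pcnp and 41.3% for Hdac1. Of the stretches of Gm7887, 86.9% also occurred in Pcnp, while 12.0% of those of Gm14165 occurred in Rplp0.

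The copies lie on chromosomes other than those of their parents. In GRCm38, Gm8730 is at chr8:102864845-102865798 on the minus strand, Gm14165 at chr2:152353615-152354566 on the plus strand and Rplp0-ps1 at chr3:93278141-93279073 on the plus strand, while Rplp0 is at chr5:115559467-115563727 on the plus strand. Gm13456 is at chr2:40555752-40557116 (plus) and Eef1a1 at chr9:78478449-78489151 (minus). Gm7887 is at chr6:48524554-48525090 (minus) and Pcnp at chr16:56007245-56029739 (minus). Gm10093 is at chr17:78491582-78493025 (plus) and Hdac1 at chr4:129516104-129542713 (minus). Gm14165 lies within Gm14164 and Rplp0-ps1 within the filaggrin gene Flg, both on the same strand and both at 0 TPM in all 21 libraries. Gm7887 overlaps Zfp862-ps on the opposite strand, which averaged 1.35 TPM, below the lowest KO level of Gm7887.

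Of the chromosomes that carry an engineered locus, chromosome 6 holds Gm7887, 64.5 Mb from the ROSA26 locus, chromosome 16 holds Pcnp, 39.6 Mb from Dnm1l, and chromosome 4 holds Hdac1, 10.2 Mb from Pax7. The other 5 copies share no chromosome with these loci.

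The copies of Rplp0 were read in control cells and hardly at all in KO cells. Gm8730 stood at 512, 508 and 519 TPM in the control QSC libraries, at 442, 508, 441 and 631 TPM in those of 1 DPI and at 643, 682 and 692 TPM in those of 3 DPI. In the 11 KO libraries it ran from 0 to 1.47 TPM with a median of 0.0573. The lowest control library thus stood at 441 TPM and the highest KO library at 1.47 TPM, with no overlap in any state.

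Gm14165 had the same sides at a lower level. Its control libraries held 41.3, 50.9 and 48.6 TPM in QSC, 38.6, 41.5, 40.2 and 51.2 TPM at 1 DPI, and 64.3, 57.7 and 52.3 TPM at 3 DPI. It was listed at 0 in 9 of the 11 KO libraries and reached 0.968 TPM in the highest.

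Rplp0-ps1 was low throughout, between 1.25 and 4.67 TPM with a median of 2.17 in the 10 control libraries and between 0 and 0.262 TPM in KO libraries. Its lowest control and highest KO values were closer than those of any other listed copy.

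Gm10093, the copy of Hdac1, was also on the control side. Its QSC libraries held 7.26, 22.1 and 8.53 TPM, those of 1 DPI 8.28, 8.61, 8.94 and 6.96 TPM, and those of 3 DPI 4.96, 7.02 and 4.61 TPM. It was listed at 0 in all 11 KO libraries. The second control QSC library stood well above the other 9 control libraries, which lay between 4.61 and 8.94 TPM, and the same library had the lowest Hdac1 value of the table, 70.0 TPM.

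The copies of Eef1a1 and Pcnp were on the other side. Gm13456 held 130, 218 and 110 TPM in the KO QSC libraries, 154, 130, 192 and 178 TPM at 1 DPI, and 91.4, 209, 178 and 103 TPM at 3 DPI. In the 10 control libraries it ran from 0 to 0.884 TPM, with a median of 0.275.

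Gm7887 held 25.6, 39.8 and 54.0 TPM in the KO QSC libraries, 22.0, 35.0, 38.2 and 68.1 TPM at 1 DPI, and 23.5, 50.9, 47.8 and 30.3 TPM at 3 DPI. It was listed at 0 in all 10 control libraries. Within KO cells the values of Gm7887 spread by about as much within a state as over all 11 libraries, with an SD of 14.2 TPM in QSC, 19.5 TPM at 1 DPI, 13.3 TPM at 3 DPI and 14.5 TPM over all.

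**Figure D2:**
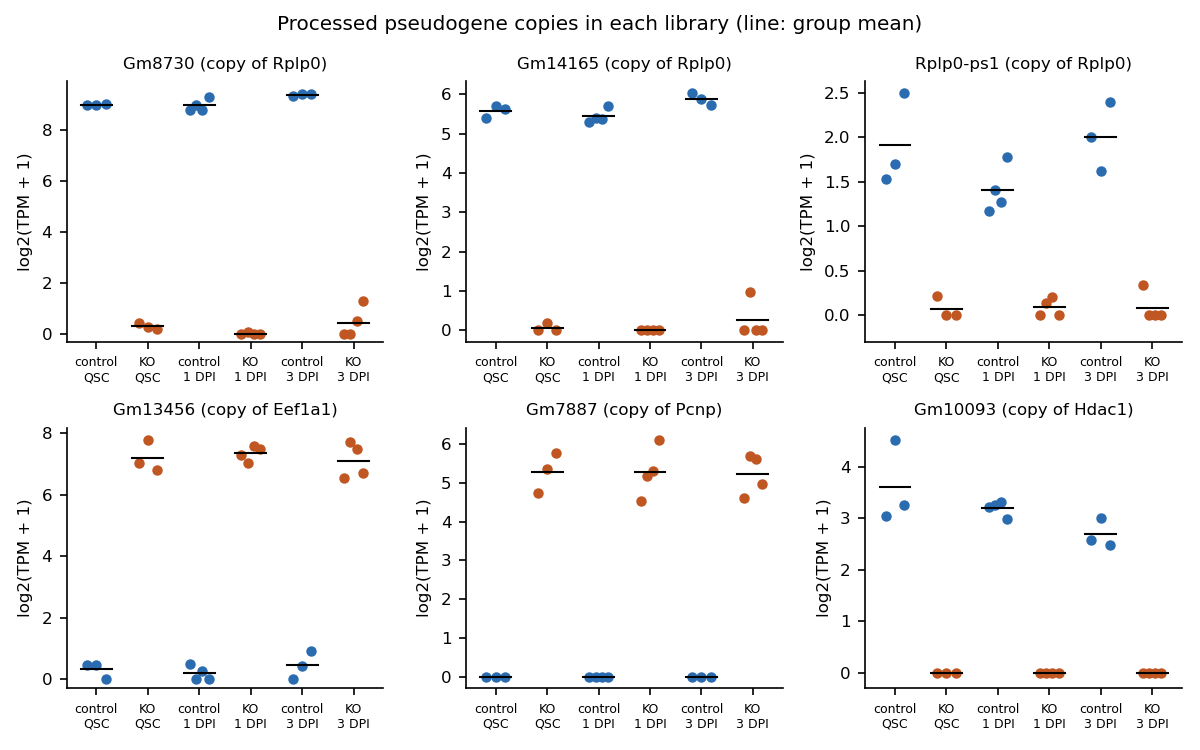
Level of each copy, as log2(TPM + 1), in the 21 libraries of the control (blue) and KO (orange) groups, with a point per library and a line at the group mean. 4 copies are high in all 10 control libraries and 2 in all 11 KO libraries, with no overlap between genotypes.

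Over all 21 libraries, 2 of the 6 copies were above and 4 below in KO cells without overlap, the property by which they were picked. Among the 18343 genes that reached 1 TPM in 3 or more libraries, 0.0545% (10 genes) were above and 0.0709% (13 genes) below in KO cells without overlap. Within a state the share was larger, with 5.24% above and 4.51% below in QSC, 1.31% and 1.19% at 1 DPI and 2.98% and 3.25% at 3 DPI. Each copy passed the filter on low values only through the genotype in which it is high.

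Of the 23 genes split over all 21 libraries, 19 are annotated as pseudogenes. The 23 hold the 6 copies, 6 further relatives of Rplp0, Eef1a1 and Hdac1 by sequence, and 11 other genes. The 6 copies were picked for this split, so the 19 in part restate that choice. Of all 55471 identifiers, 13517 are annotated as pseudogenes, but their share among the genes that passed the filter was not counted. The sides of the relatives followed the families: those of Rplp0 and Hdac1 were below and those of Eef1a1 above in KO cells.

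A search of all annotated pseudogenes against the 4 parents, at 90% identity over 50% of the pseudogene or more, found 29, the 6 listed copies and 23 more. Of the 23, 7 reached 5 TPM in a library. Gm9625, a copy of Rplp0, ran from 316 to 523 TPM with a median of 399 in control libraries and from 0 to 2.04 TPM in KO libraries. Gm6278, also a copy of Rplp0, ran from 74.4 to 131 TPM in control and from 0 to 1.23 TPM in KO libraries. After Gm8730 these were the most abundant copies of Rplp0.

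Around Eef1a1, AC133509.1 ran from 18.7 to 47.6 TPM in KO and from 0 to 0.885 TPM in control libraries, and Gm5869 from 4.19 to 13.7 TPM in KO and from 0 to 1.04 TPM in control libraries. Gm6548 and Gm36964, further copies of Eef1a1 past 5 TPM, overlapped between the genotypes, at 1.91 to 7.44 against 1.56 to 12.0 TPM and at 0 to 13.7 against 0 to 1.57 TPM in control and KO libraries. Gm4864, a copy of Hdac1, ran from 2.92 to 6.46 TPM in control and from 0 to 0.0115 TPM in KO libraries. A split by genotype was thus not shared by all copies of Eef1a1: of its 18 relatives outside the list, 2 split. But 14 of the 18 stayed below 5 TPM in all libraries, where a split could hardly show, and of the 4 that reached it 2 split. The 2 relatives of Hdac1 outside the list split, and so did the 2 of Rplp0 that reached 5 TPM.

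The genes whose log2(TPM + 1) was most like a copy's over the 21 libraries were again processed pseudogenes. They were Gm6278 and Gm47021 for Gm8730 (r = 0.996 and 0.991), Gm9625 and Gm47021 for Gm14165 (0.99 and 0.99), and Gm4864 and Gm47021 for Rplp0-ps1 (0.94 and 0.94). For Gm13456 they were AC133509.1 and Gm5575 (0.99 and 0.98), for Gm7887 the same pair (0.98 and 0.98), and for Gm10093 Gm4864 and Gm9625 (0.96 and 0.96). These are descriptions over libraries that fall into 2 genotypes, so r takes in the step between them. Gm5575 reached 172 to 942 TPM in KO libraries and 0 to 1.17 TPM in control libraries.

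Shares are given of the sum of a parent and its listed copies, without the other relatives. The summed share of the 3 Rplp0 copies was steady in control libraries (coefficient of variation 2.90%), and Gm8730 made up most of it (3.11% alone). Rplp0-ps1 alone varied by 42.8%. The figure was 30.0% for Gm13456 and 37.6% for Gm7887 in KO libraries, and 74.0% for Gm10093 in control libraries. In control libraries the 3 copies of Rplp0 together held 23.8% to 26.4% of the sum of parent and copies, and at most 0.0482% in KO libraries. Gm8730 alone held 21.5% to 24.3%, Gm14165 1.73% to 2.29% and Rplp0-ps1 0.0658% to 0.208%. Gm14165 stood at 7.56% to 10.01% of Gm8730 in the 10 control libraries, a ratio with a coefficient of variation of 9.59%.

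Gm10093 held 6.82%, 24.0% and 7.97% of its family in the control QSC libraries, 6.03% to 8.30% at 1 DPI and 2.98% to 5.86% at 3 DPI. Gm13456 held 2.30% to 5.24% in KO libraries, with 4.74% to 4.98% in the 4 libraries of 1 DPI. Gm7887 held 5.98% to 19.0% in KO libraries. Differences in spread between the families were not tested.

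Whether a copy's share moved with injury was tested within the genotype in which it is read, in 12 exact two-sided permutation tests over libraries. The share of Gm8730 was 23.6% ± 0.559 (SD, n = 4) at 1 DPI and 22.3% ± 0.715 (n = 3) at 3 DPI, without overlap (exact p = 0.0571, the smallest that 3 against 4 libraries allow; adjusted p = 0.343 over the 12). The share of Gm10093 was 7.05% ± 1.04 (n = 4) at 1 DPI and 4.18% ± 1.50 (n = 3) at 3 DPI, also without overlap (exact p = 0.0571, adjusted p = 0.343). The groups overlapped in the other 10 tests. A design of 3 against 4 cannot reach 0.05, and 4 against 4 can go down to 0.0286. After adjustment over the 12, no test could have come under 0.05 whatever the values. The tests therefore cannot tell whether a share moved or stayed.

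The parent genes moved far less between genotypes than the copies, which had been picked because their levels split. Rplp0 stood at 1694, 1657 and 1674 TPM in control QSC and at 2724, 2247 and 2438 TPM in KO QSC. At 1 DPI it was 1418, 1655, 1380 and 1911 TPM in control and 2318, 1647, 2498 and 2450 TPM in KO libraries, and at 3 DPI 2274, 2273 and 2274 TPM in control and 3207, 2920, 3045 and 3046 TPM in KO libraries. KO libraries were above all controls in QSC and at 3 DPI, as for 5.24% and 2.98% of all genes tested, and overlapped them at 1 DPI.

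On the log2(TPM + 1) scale Rplp0 was higher in KO cells by 0.56 (SE 0.08) in QSC, 0.48 (SE 0.18) at 1 DPI and 0.43 (SE 0.03) at 3 DPI. The mean KO level was 1.47, 1.40 and 1.34 times the mean control level. With the 3 listed copies added, the family stood at 2238 ± 16.8 TPM (SD, n = 3) in control and 2470 ± 240.5 TPM (n = 3) in KO QSC, 2141 ± 339.8 (n = 4) and 2229 ± 394.9 TPM (n = 4) at 1 DPI, and 3007 ± 20.5 (n = 3) and 3055 ± 117 TPM (n = 4) at 3 DPI. These sums overlapped between genotypes in all states, with differences of 0.14, 0.05 and 0.02, the last of which turned to -0.02 with median-of-ratios scaling. Leaving out 1 library gave -0.011 to 0.19 at 1 DPI and -0.0012 to 0.044 at 3 DPI, so neither has a settled direction.

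The sum depended on which copies were counted. With the 3 relatives outside the list added as well, the Rplp0 family of 7 genes stood at 2721 ± 18.9 TPM in control and 2470 ± 240.8 TPM in KO QSC, at 2609 ± 414.4 and 2230 ± 394.4 TPM at 1 DPI, and at 3628 ± 31.1 and 3058 ± 117 TPM at 3 DPI. The KO minus control difference was then -0.14, -0.23 and -0.25, below 0 in all 3 states and also with median-of-ratios scaling. At 3 DPI the control libraries lay between 3593 and 3653 TPM and the KO libraries between 2923 and 3210 TPM, without overlap, while QSC and 1 DPI overlapped. Of all single genes tested, 3.25% lay below control without overlap at 3 DPI. This wider sum was chosen after the values of the relatives had been seen.

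The stalk partners of Rplp0 were slightly lower on average in KO cells. Rplp1 stood at 784.8 ± 10.8 TPM in control and 717.4 ± 63.7 TPM in KO QSC, a difference of -0.13, and at -0.21 and -0.12 at 1 DPI and 3 DPI. Rplp2 stood at 634.1 ± 30.4 TPM in control and 605.6 ± 92.5 TPM in KO QSC and differed by -0.08, -0.19 and -0.08 in the same order, but by 0.056 in QSC without the second KO library. These are descriptions of 2 genes that were not tested between genotypes here.

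Eef1a1 held 4456 ± 102 TPM (n = 3) in control and 4282 ± 576.5 TPM (n = 3) in KO QSC, 3235 ± 241.6 and 3192 ± 472.9 TPM at 1 DPI (n = 4 each), and 3793 ± 45.7 (n = 3) and 3699 ± 293.0 TPM (n = 4) at 3 DPI. The libraries overlapped in all states. With Gm13456 added the means were 4456 and 4435, 3235 and 3356, and 3794 and 3844 TPM, and these overlapped too.

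Pcnp held 445.7 ± 12.9 TPM in control and 439.5 ± 39.7 TPM in KO QSC, 277.8 ± 8.23 and 269.9 ± 51.1 TPM at 1 DPI, and 288.3 ± 14.6 and 283.0 ± 22.9 TPM at 3 DPI. Adding Gm7887 gave KO means of 479.3, 310.7 and 321.1 TPM, 0.10, 0.14 and 0.15 above control on the log2 scale, with overlap in all states.

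Hdac1 held 89.3 ± 16.7 TPM in control and 98.4 ± 20.5 TPM in KO QSC, 109 ± 12.2 and 137 ± 16.5 TPM at 1 DPI, and 131 ± 18.6 and 147 ± 10.03 TPM at 3 DPI. Adding Gm10093 raised the control means to 102, 117 and 136 TPM. Hdac1 and its sum overlapped between genotypes in all states. How reads were divided between parent and copy cannot be seen in these files, and its part in these levels was not tested.

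**Figure D3:**
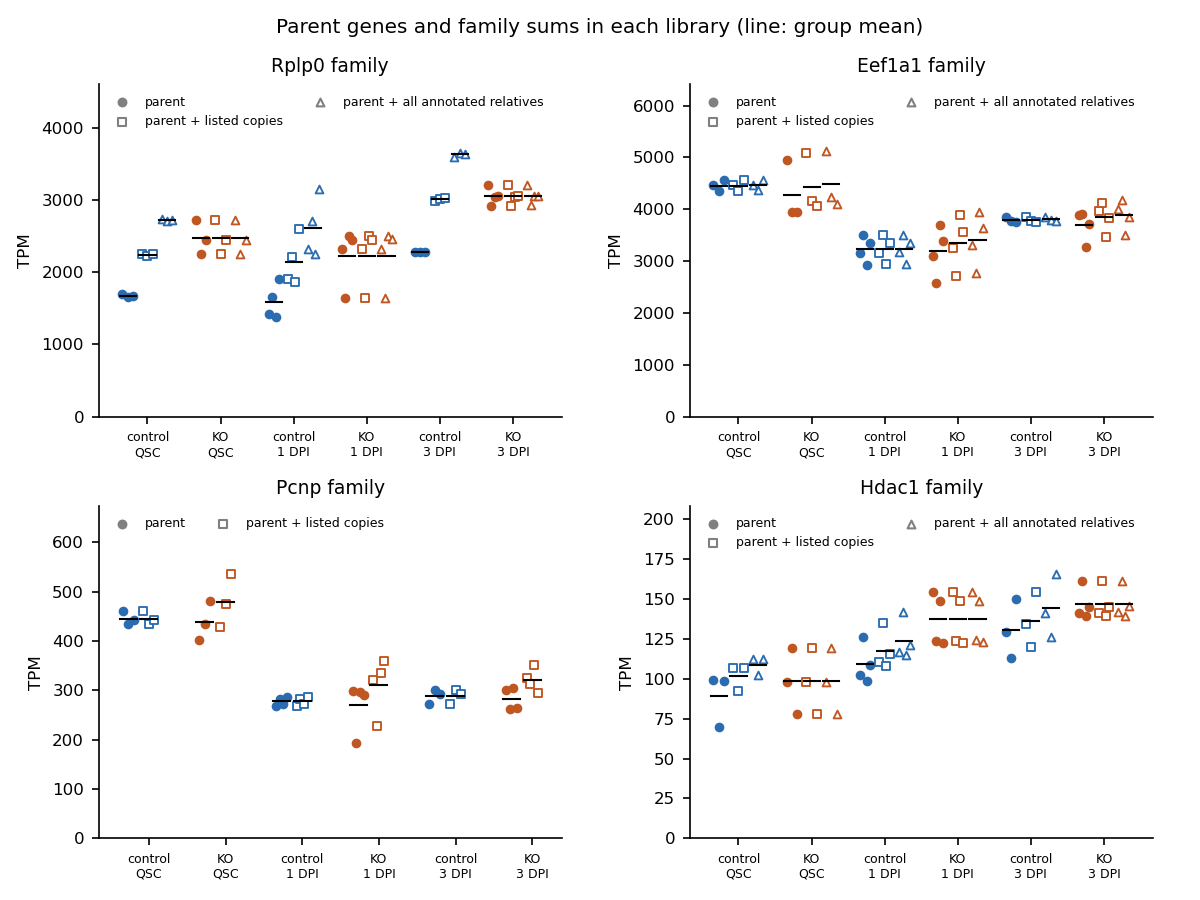
TPM of each parent (filled circles), of parent plus listed copies (open squares) and of parent plus all annotated relatives found by sequence (open triangles, not drawn for Pcnp, which has none besides Gm7887) in control (blue) and KO (orange) libraries, with lines at group means. In the Rplp0 family KO parents lie above control parents in QSC and at 3 DPI, sums with the listed copies overlap, and sums with all relatives lie lower in KO cells at 3 DPI.

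Injury did move parents within a genotype. The copies were picked by the genotype contrast and not by this one, but genes and tests were chosen with earlier results of these data known. Tests were made on log2(TPM + 1) with limma over all genes of a table and Benjamini-Hochberg adjustment. From QSC to 1 DPI in control cells, 2 of the 4 parents passed the threshold of 0.05, beside 35.9% of all genes tested. Eef1a1 fell by 0.46 (SE 0.11, limma adjusted p = 0.00296) and Pcnp fell by 0.68 (SE 0.13, adjusted p = 0.000277). All 4 libraries of 1 DPI lay below all 3 of QSC for both genes, and how many of all genes split in this way was not counted. With median-of-ratios scaling the differences were -0.83 and -1.04, and Rplp0 passed as well (-0.45, adjusted p = 0.00222).

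In KO cells 3 of the 4 parents passed from QSC to 1 DPI, beside 32.1% of all genes. Eef1a1 fell by 0.43 (SE 0.11, limma adjusted p = 0.00643), Pcnp fell by 0.72 (SE 0.13, adjusted p = 0.000192) and Hdac1 rose by 0.49 (SE 0.16, adjusted p = 0.0228). The rise of Hdac1 did not hold with median-of-ratios scaling (0.16), and in control cells its difference was 0.30 (adjusted p = 0.161), or -0.06 with that scaling. Without the first KO QSC library the calls of Eef1a1 (adjusted p = 0.0613) and Hdac1 (adjusted p = 0.0561) were lost and 1 member passed. The call of Hdac1 was also lost without the third KO QSC library or without the first or the third KO library of 1 DPI. With median-of-ratios scaling Eef1a1 differed by -0.76, Pcnp by -1.05 and Rplp0, which then passed, by -0.50 (adjusted p = 0.00113).

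From 1 DPI to 3 DPI, Rplp0 was the member that passed in both genotypes. It rose by 0.53 (SE 0.13, limma adjusted p = 0.00995) in control cells, where 13.3% of all genes passed, and by 0.47 (SE 0.12, adjusted p = 0.0092) in KO cells, where 18.9% passed. All 3 control libraries of 3 DPI lay above all 4 of 1 DPI, and all 4 KO libraries of 3 DPI above all 4 of 1 DPI. The share of all genes without overlap in this step was not counted either. The call in KO cells was lost when only the KO groups of 1 DPI and 3 DPI were fitted (adjusted p = 0.0942). Markers of other cells moved in this step too. Those of myofibres summed to 57.0 to 167 TPM at 1 DPI and 670 to 846 TPM at 3 DPI in control cells. In KO cells they summed to 88.8 to 129 and 526 to 944 TPM. Leukocyte markers reached at most 275 TPM in control and 254 TPM in KO libraries of 3 DPI. Their part in the rise of Rplp0 was not tested.

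Each copy is described in the genotype in which it was read, since in the other it lay at or near 0 throughout and could not have passed. None of the 4 copies read in control cells and of the 2 read in KO cells passed in either step, by limma after adjustment. With median-of-ratios scaling Rplp0-ps1 passed from QSC to 1 DPI (-0.76, adjusted p = 0.033). Gm8730 differed by -0.04 (SE 0.24, adjusted p = 0.929) from QSC to 1 DPI in control cells and by 0.43 (SE 0.24, adjusted p = 0.268) from 1 DPI to 3 DPI, and Gm14165 by -0.13 and 0.43 with SE of 0.25. Rplp0-ps1 differed by -0.51 (SE 0.27) and 0.60 (SE 0.27, unadjusted p = 0.0405), the one copy under 0.05 before adjustment. Gm10093 differed by -0.41 and -0.51 (SE 0.30 each) in control cells. In KO cells Gm13456 differed by 0.14 and -0.24 and Gm7887 by -0.01 and -0.05, with SE of 0.28 to 0.34. The SE of the copies was larger than that of their parents, which lay between 0.11 and 0.16 in these steps. All groups of both genotypes share a variance in this fit, so a copy's SE also takes in libraries where it lay at or near 0. It does not measure the copy's scatter within its own genotype, and the tests of the copies rest on it.

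Summing parent and copies left the calls in these 4 steps as they were for the parents. Part of this is fixed by construction, since a sum repeats its parent where the copies lay at or near 0. That holds for Eef1a1 and Pcnp in control cells and for Rplp0 and Hdac1 in KO cells, where the sums are no second result. The Hdac1 sum in KO cells has the values of Hdac1 itself, and its adjusted p differs only through the variance shared with control libraries. The Rplp0 sum rose by 0.50 (SE 0.13, limma adjusted p = 0.0139) in control and 0.47 (adjusted p = 0.00939) in KO cells from 1 DPI to 3 DPI. In control cells that call was lost without the second (adjusted p = 0.0511) or the third library of 3 DPI (adjusted p = 0.0504). The sums of Eef1a1 and Pcnp fell by 0.46 and 0.68 in control and by 0.41 and 0.64 in KO cells from QSC to 1 DPI, and the Hdac1 sum rose by 0.49 (adjusted p = 0.0119) in KO cells. The call of the Hdac1 sum was lost with median-of-ratios scaling (0.16, adjusted p = 0.405), with only the 2 groups fitted (adjusted p = 0.0852) and without the third KO QSC library (0.34, adjusted p = 0.0959). That of the Eef1a1 sum in KO cells was lost with only the 2 groups fitted (adjusted p = 0.164) and without the first KO QSC library (adjusted p = 0.0712). Leukocyte markers moved with the same step, from a sum of 30.9 to 82.6 TPM over QSC libraries to 185.4 to 4317 TPM at 1 DPI, and satellite cell markers from 6078 to 7969 TPM to 1425 to 2822 TPM. Erythroid markers summed to 113 to 236 TPM in control QSC and 187 to 1785 TPM in control 1 DPI libraries. In KO cells they summed to 32.4 to 126 and 144 to 1624 TPM. Their part in these changes was not tested, and in bulk RNA fewer cells of a type and less RNA per cell cannot be told apart. Median-of-ratios scaling moved the median of all genes by -0.20 in this step in both genotypes, and the share of higher among called genes from 64.9% to 47.0% in control and from 67.1% to 47.9% in KO cells.

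**Figure D4:**
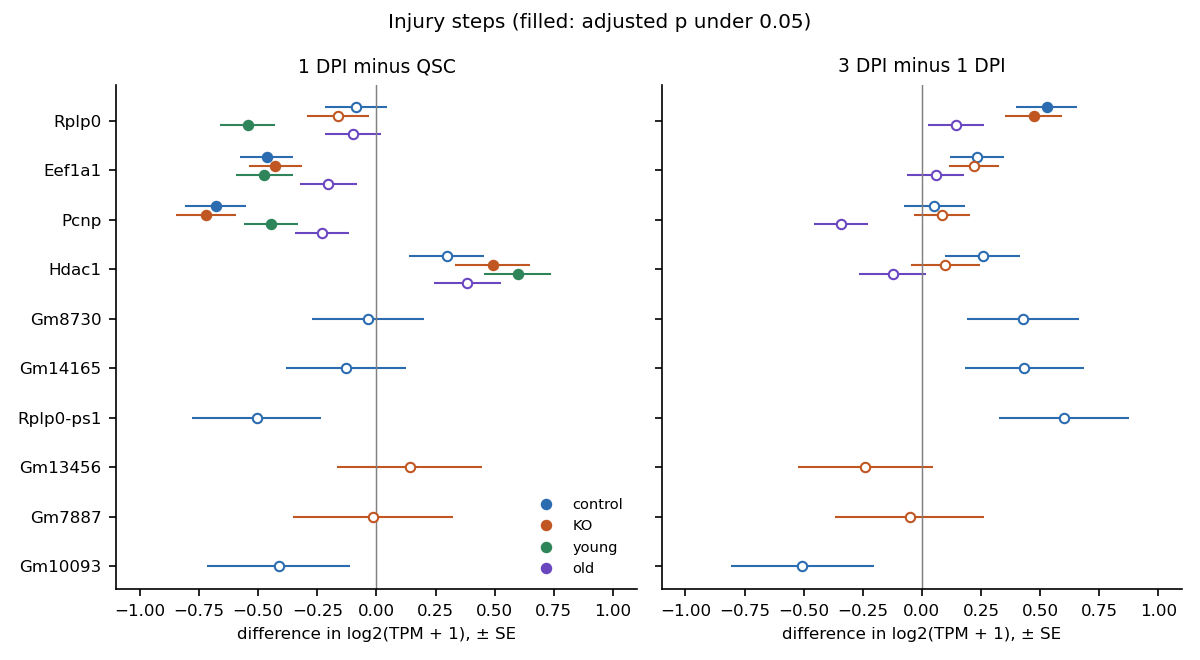
Difference in log2(TPM + 1) ± SE from QSC to 1 DPI (left) and from 1 DPI to 3 DPI (right) in control, KO, young and old cells, filled where the limma adjusted p was under 0.05. Copies are drawn for the genotype in which they are read. Eef1a1 and Pcnp lie below 0 on the left, Rplp0 lies above 0 on the right in control and KO cells, and no copy is filled.

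Genes that work with the parents were taken from 4 lists, which include the parents. Of 8 genes of the ribosomal stalk and its large subunit neighbours, 3 rose and 1 fell from QSC to 1 DPI in control cells and 1 rose in KO cells, beside 35.9% and 32.1% of all genes called in either direction. With median-of-ratios scaling 0 rose in either genotype, and 4 fell in control and 3 in KO cells. The list counts with this scaling were added after the data had been seen. Rplp1 and Rplp2 were among those that rose in control cells, by 0.38 (SE 0.15, limma adjusted p = 0.0495) and 0.40 (SE 0.14, adjusted p = 0.037), but these calls were lost in 11 and 8 of 12 alternatives, scaling among them (0.017 and 0.035). The call of Rpl5, the one that fell, was lost in 9 of 12. Of 10 elongation factors tested, 4 rose and 3 fell in each genotype, beside the same shares of all genes, and with median-of-ratios scaling 0 rose and 4 fell in control and 2 rose and 4 fell in KO cells. Eef2, the translocase of elongation, fell by 0.47 (SE 0.13, limma adjusted p = 0.00841) in control and 0.46 (SE 0.13, adjusted p = 0.011) in KO cells. These calls were lost without the third control QSC library and without the first KO QSC library (adjusted p = 0.0582 and 0.0612). Eef1d and Eef1g rose in both genotypes. Their calls were lost with median-of-ratios scaling, at 0.37 and 0.20 in control and 0.28 and 0.09 in KO cells.

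Of 19 class I deacetylases and partners of HDAC1 tested, 3 rose and 7 fell in control and 5 rose and 8 fell in KO cells in the same step, again beside 35.9% and 32.1% of all genes. With median-of-ratios scaling 0 rose and 9 fell in each genotype. Chd4, the remodeller of NuRD, fell by 1.27 (SE 0.17, limma adjusted p = 5.29e-06) in control and 1.04 (SE 0.17, adjusted p = 7.06e-05) in KO cells. Kdm1a, the demethylase of CoREST, fell by 1.36 (SE 0.16, adjusted p = 1.4e-06) in control and fell by 1.20 (SE 0.16, adjusted p = 9.46e-06) in KO cells, and Rbbp7, a histone-binding subunit, fell by 0.75 and 1.02 (SE 0.14 each). Sap30 went the other way, with a rise of 1.59 in control and 1.63 in KO cells in the fit with no filter. Its calls were lost in 7 and 8 of 12 alternatives. The median of this list was -0.34 in control and -0.46 in KO cells, beside medians of all genes of 0.15 and 0.16.

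Around Pcnp, Uhrf2 fell along with it, by 1.11 (SE 0.20, limma adjusted p = 0.000224) in control and 1.09 (SE 0.20, adjusted p = 0.000333) in KO cells. Uhrf1, its paralog with a role in DNA methylation at replication, rose by 4.82 and 4.43 (SE 0.24 each), from 0.95 to 52.6 TPM in control and from 1.44 to 51.4 TPM in KO cells. Pcna, the sliding clamp of DNA replication, rose by 1.57 and 1.52 (SE 0.19 each).

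No label says how the young and old table took the form described below for the copies, and whether that touched the parents' values and tests was not tested. Rplp0 lay between 1671 and 2924 TPM, Eef1a1 between 3199 and 4912, Pcnp between 265.5 and 482.4 and Hdac1 between 74.0 and 138 TPM over the 15 libraries. In young cells all 4 parents passed from QSC to 1 DPI, beside 32.0% of all genes. The other member tested, Gm8730, could not be read as a level in this table, is left out of these counts and is described below. Rplp0 fell by 0.54 (SE 0.12, limma adjusted p = 0.00268), Eef1a1 by 0.48 (SE 0.12, adjusted p = 0.00777) and Pcnp by 0.45 (SE 0.11, adjusted p = 0.0079), and Hdac1 rose by 0.60 (SE 0.14, adjusted p = 0.00522).

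In old cells 0 of the 4 parents passed in that step, beside 32.5% of all genes. The differences were -0.10, -0.20, -0.23 and 0.38 for Rplp0, Eef1a1, Pcnp and Hdac1, with limma adjusted p from 0.0526 to 0.565. The difference between the ages in this step was not tested. From 1 DPI to 3 DPI in old cells 0 passed, beside 17.5%, and the nearest was Pcnp at -0.34 (SE 0.11, adjusted p = 0.0523). Leukocyte markers in old cells summed to 107 to 384 TPM at 1 DPI and to 3347 to 4521 TPM at 3 DPI. Those of myofibres summed to 24.8 to 66.9 and 608 to 971 TPM, and the part of either in this step was not tested. Between old and young cells 0 passed in QSC, beside 0.726%, and 0 at 1 DPI, beside 0.142%. Before adjustment, 3 members had a limma p under 0.05 in these 4 comparisons. They were Rplp0 between the ages in QSC (-0.28), Hdac1 from QSC to 1 DPI and Pcnp from 1 DPI to 3 DPI in old cells.

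The copies could not be read as levels in this table. It holds no 0, and 42536 genes have a lowest value that 2 or more libraries share, which for 42.5% of them lies more than 1% away from the commonest lowest value. The lowest value of a copy was 110.7 times the commonest one for Gm8730, 35.5 times for Gm14165, 19.9 times for Gm10093, 8.01 times for Rplp0-ps1, 1.02 times for Gm13456 and 0.476 times for Gm7887. TPM of the copies were therefore not compared with the first table, and only multiples of each copy's own lowest value are given, which are not ratios of TPM.

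To find a copy's lowest value, TPM were first divided by the commonest value of each library, which differs between libraries, and values within 1% of the lowest count as lowest. On this scale Gm10093 stood at its lowest value in all 15 libraries, Gm14165, Rplp0-ps1 and Gm7887 in 13 and Gm8730 in 11. Gm8730 reached 34 times its lowest value in 1 young QSC library, 5.5 and 9 times in 2 old QSC libraries and 3 times in 1 old library of 3 DPI. Gm14165 reached 12.5 and 14 times in 1 young and 1 old QSC library, and Rplp0-ps1 7.5 and 6.5 times in 1 young QSC and 1 old 3 DPI library. Gm7887 reached 131 times in 1 young QSC and 59 times in 1 young 1 DPI library.

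Gm13456 left its lowest value most often, in 8 of 15 libraries, at 1.5 to 21.5 times, in young and old cells and at all times but old 1 DPI. Gm13456 in young cells at 1 DPI was the one case in which all 3 libraries of a group lay above a copy's lowest value, and all 6 were at it in the 3 old libraries of 1 DPI. Only Gm8730 among the copies passed the filter on low values here, through a lowest value of at least 2.30 TPM in all 15 libraries, and the limma tests of it were without a call.

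**Figure D5:**
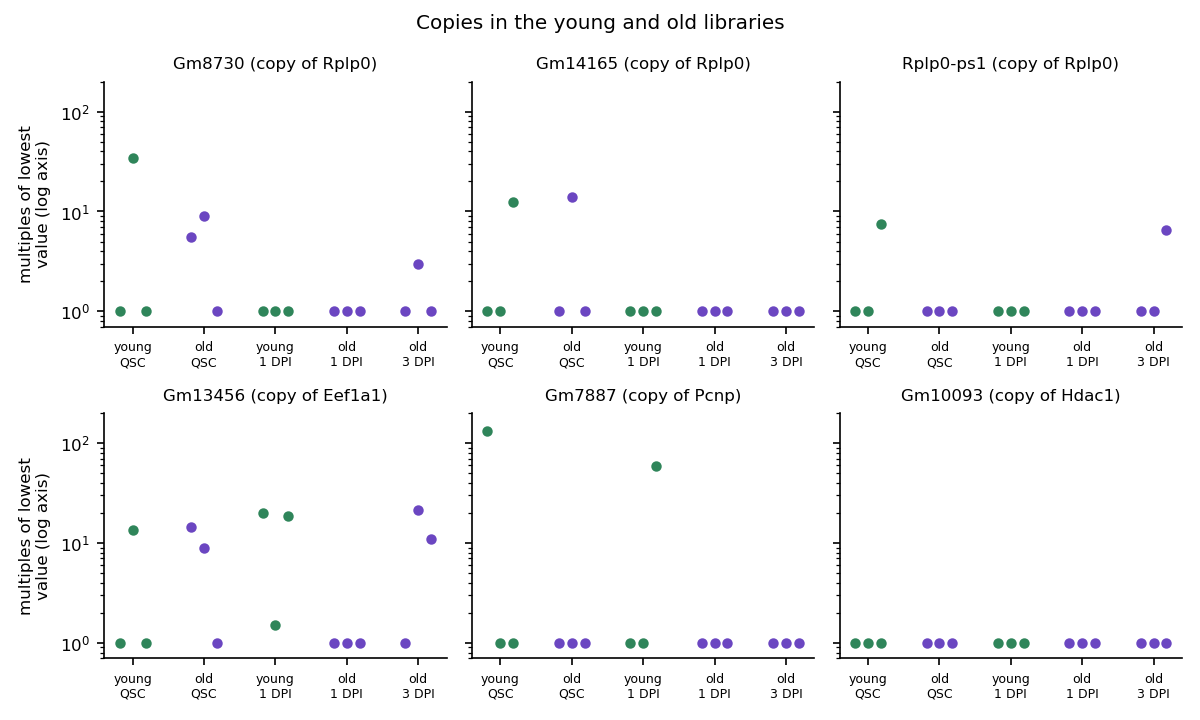
Each copy in the 15 young (green) and old (purple) libraries, as multiples of the copy's own lowest value, after division by the commonest value of each library, on a log axis. Most points lie at 1, the highest is Gm7887 at 131 in a young QSC library, and Gm10093 is at its lowest value in all libraries.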

How the data were processed

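RNA sequencing of sorted satellite cells was taken as 2 deposited tables of gene-level TPM, made by the authors with RSEM 1.3.1 after CASAVA 1.8.2 and cutadapt 1.7.1 on GRCm38, per the submitters' processing notes. For the aligner, and for how reads common to parent and copy were divided, nothing is given in the sources used here. Because a low-input kit and a directional protocol are both named in the labels, strandedness is unsettled. RSEM divides shared reads by an estimate, so levels of near-identical genes are uncertain. Depth is unknown.

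Ensembl identifiers were matched to GENCODE M21 (55144 with a symbol, 327 without). Members, gene lists and tests were chosen with earlier results of these data known. Tests used limma 3.58.1 in R 4.3.3 with a trended prior on log2(TPM + 1), over genes with at least 1 TPM in 3 libraries, all groups of a table fitted, Benjamini-Hochberg adjustment over all genes and a threshold of 0.05. Fold changes on this scale understate those of low genes. All 10 members passed this filter in the first table and 5 in the second. The code was tested on simulated data. Shares were tested by exact permutation with SciPy 1.17.1. Relatives were found with BLAST 2.17.0 at 90% identity over 50% of the pseudogene.

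Named genes were the 10 members, the 2 genes most correlated with each copy, up to 5 relatives per parent that reached 5 TPM, list genes that passed the test or were among the 3 most abundant of their list, and Dnm1l. Of these, list genes are shown as examples, since many passed. Alternatives were a pseudocount of 0.1, no filter, median-of-ratios scaling, fitting 2 groups, a replicate block and leaving out each library. Libraries with the same number did not deviate together (r from -0.0475 to 0.0822), so numbers were not taken as pairs.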

Additional observations from a re-analysis of the deposited data

Results flagged for a closer look

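Pcnp in the second KO library of 1 DPI stood at 193 TPM, against 291 to 299 TPM in the other 3 libraries of its group. Its gap to the nearest library was 0.922 of the group's whole range. Of 40 groups of 4 libraries examined, 1 was singled out this way, and chance singles out about 1 in 20. The 40 take in sums that repeat values of single members, so they are not separate and their count cannot be set against that rate.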

How the results depend on the processing

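Depth is unknown, so TPM near 0 cannot be told from 0. In control cells, Eef1a1 and Pcnp from QSC to 1 DPI and Rplp0 from 1 DPI to 3 DPI kept their calls in all 12 alternatives. With median-of-ratios scaling, 4 members passed from QSC to 1 DPI in control cells, 2 from 1 DPI to 3 DPI in control and 2 in KO cells, and 1 from QSC to 1 DPI in old cells, and 2 family sums passed from 1 DPI to 3 DPI in control cells and 1 from QSC to 1 DPI in old cells. That scaling turned Hdac1 (-0.061) and its sum (-0.16) from QSC to 1 DPI in control cells, Gm13456 from QSC to 1 DPI in KO cells (-0.19), Hdac1 from 1 DPI to 3 DPI in old cells (0.045) and Pcnp between old and young QSC (0.070). It moved the share of higher calls from 38.1% to 48.1% from 1 DPI to 3 DPI in control cells, from 32.7% to 44.8% in old cells and from 47.2% to 70.6% between old and young QSC, and the median of all genes from 1 DPI to 3 DPI in old cells by 0.13. With only the 2 groups fitted, 1 member and 1 sum passed from QSC to 1 DPI in KO cells, 0 sums from 1 DPI to 3 DPI in control cells, and 0 members and 0 sums in KO cells. With no filter, 1 member and 1 sum passed in each of the old cell steps, from QSC to 1 DPI and from 1 DPI to 3 DPI. With a replicate block, which libraries sharing only a number do not call for, 2 members and 2 sums passed in young cells from QSC to 1 DPI, and the calls of Pcnp (adjusted p = 0.0981) and Hdac1 (adjusted p = 0.0532) were lost. No paired analysis was possible because the numbers are not shared between the old and young groups compared.

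Leaving out each library gave 1 to 3 members passing from QSC to 1 DPI in KO cells, 0 to 1 members and 0 to 1 sums in old cells, and 0 to 1 sums from 1 DPI to 3 DPI in control cells. Differences that changed sign ranged from -0.15 to 0.022 for Gm8730 and from -0.69 to 0.046 for Gm10093 from QSC to 1 DPI in control cells. In KO cells they ranged from -0.061 to 0.43 for Gm13456 and from -0.29 to 0.24 for Gm7887 in that step, and from 1 DPI to 3 DPI from -0.065 to 0.14 for Pcnp, from -0.076 to 0.14 for its sum and from -0.30 to 0.23 for Gm7887. In the other table they ranged from -0.18 to 0.019 for Rplp0 from QSC to 1 DPI in old cells, from -0.051 to 0.18 for Eef1a1 from 1 DPI to 3 DPI in old cells, and from -0.17 to 0.020 for Pcnp and from -0.087 to 0.12 for Hdac1 between old and young QSC. Of 420 alternative values of the genotype differences, 32 changed sign; when 1 library was left out, this touched the Rplp0 sum at 1 DPI and 3 DPI, the Eef1a1 sum in all states, the Hdac1 sum in QSC, Eef1a1 at 1 DPI and 3 DPI, Pcnp in all states and Hdac1 in QSC.

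Weighting by transcript length gave a KO minus control copy share, in percentage points for QSC, 1 DPI and 3 DPI, of -19.1, -19.5 and -18.4 for Rplp0 and of 2.04, 3.47 and 3.08 for Pcnp, and at 1 DPI of 3.74 for Eef1a1 and -5.10 for Hdac1. Adding all relatives gave -38.4, -38.9 and -37.2 for Rplp0, 6.31 for Eef1a1 and -11.8 for Hdac1 at 1 DPI and -9.49 for Hdac1 at 3 DPI. It turned the Rplp0 sum to -0.14, -0.23 and -0.25, and with median-of-ratios scaling to -0.18, -0.24 and -0.29. The cause of these changes was not tested, apart from the genes that the wider sums add by construction.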
